A study of Mus musculus with 6 samples.

Results

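Thymic egress, the exit of newly made T cells from the thymus into the blood, was followed here through 7 genes: Klf2, Klf3, S1pr1, S1pr4, Ccr7, Foxo1 and Slfn2. They were picked by name, with earlier results of these data known. Each was read from the brightest probe set, by the mean of 6 arrays, among those annotated to that gene alone. All 7 were measured, out of 22180 genes on the arrays. Klf2, Klf3, S1pr1, S1pr4, Ccr7 and Slfn2 had a single such probe set each, and Foxo1 had several, so the 7 genes were covered by 8 probe sets.

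RNA came from Ets1-/- and WT mice of the C57BL/6 strain, 5 to 6 weeks old, with 3 single-channel Affymetrix arrays per genotype. Ets1 encodes an ETS-family transcription factor, and how its allele was disrupted is not stated in the labels. The cells of both genotypes were CD4+ CD8+ double-positive (DP) thymocytes, an immature stage that carries both coreceptors. Both were fixed with formaldehyde before they were selected with magnetic beads on CD8 and then on CD4. Litter-mate cohorts served as replicates; the labels do not say whether an array held 1 animal or a pool, so p-values measure the spread between these samples.

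In a developing T cell the transcription factor Foxo1 switches on Klf2, and Klf2 in turn switches on S1pr1, a receptor for the lipid sphingosine 1-phosphate (S1P). S1P is scarce in thymic tissue and plentiful in blood, and a cell with enough S1PR1 on its surface follows that gradient out. The program is normally silent in DP thymocytes and comes on late in single-positive cells, after the chemokine receptor CCR7 has brought them into the medulla. Klf2 and S1pr1 are also expressed by B cells, macrophages and endothelium.

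Markers of the labelled cells were bright on all arrays. Cd4 had signals of 11.08 ± 0.07 in Ets1-/- and 10.94 ± 0.06 in WT (log2, SD, n = 3 each), Cd8a 10.91 ± 0.05 in Ets1-/- and 11.00 ± 0.03 in WT, and the T-cell receptor component Cd3e 10.57 ± 0.03 in Ets1-/- and 10.68 ± 0.02 in WT. The Ets1 probe set gave 9.09 ± 0.27 in Ets1-/- and 9.20 ± 0.11 in WT (limma adjusted p = 0.860), so it does not check the genotype labels. The position of its probes relative to the disrupted part of the allele is unknown here. The medians of the arrays were 3.66 to 4.31 in Ets1-/- and 4.21 to 4.33 in WT, with the value of 3.66 on Ets1-/- replicate 1. The median log2 difference of all genes, Ets1-/- minus WT, was -0.22, and -0.022 without that array.

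Promoters of 3 genes are printed because they set the gene that changed most beside a relative of the same family that did not pass the test and beside the member whose groups differed in the other direction. They are the 250 bases before the transcription start from RefSeq (GRCm38.p6), which held 5 of the 7 genes. The Klf2 window lies at chr8:72318812-72319061 (plus strand), that of Klf3 at chr5:64803271-64803520 (plus strand) and that of Slfn2 at chr11:83064862-83065111 (plus strand). Capitals mark every match, on either strand, to CCGGAAG or AGGAAG (ETS factors), CACCC (KLF factors), GTAAACA (FOXO factors) or CTA and TAG separated by any 4 bases (MEF2 factors).
Klf2: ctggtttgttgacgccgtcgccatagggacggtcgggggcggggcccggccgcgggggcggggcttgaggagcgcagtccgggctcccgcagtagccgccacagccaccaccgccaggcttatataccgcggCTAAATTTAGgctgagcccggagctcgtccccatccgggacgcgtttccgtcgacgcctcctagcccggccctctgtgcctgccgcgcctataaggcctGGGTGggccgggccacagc
Klf3: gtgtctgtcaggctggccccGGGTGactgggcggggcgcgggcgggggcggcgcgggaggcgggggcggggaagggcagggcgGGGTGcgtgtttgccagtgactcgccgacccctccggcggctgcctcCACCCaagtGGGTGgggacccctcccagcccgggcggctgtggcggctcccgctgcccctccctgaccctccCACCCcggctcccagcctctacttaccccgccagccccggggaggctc
Slfn2: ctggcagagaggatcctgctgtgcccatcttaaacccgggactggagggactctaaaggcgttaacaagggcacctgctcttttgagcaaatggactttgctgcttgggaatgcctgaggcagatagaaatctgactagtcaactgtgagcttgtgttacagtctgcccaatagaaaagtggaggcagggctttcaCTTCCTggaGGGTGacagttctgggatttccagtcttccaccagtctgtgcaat

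The Klf2 window held 1 match to the MEF2 motif, which began 118 bases before the start, and 1 to the KLF motif at 19 bases before it. MEF2 factors are known to act on the Klf2 promoter downstream of the kinase ERK5. The Klf3 window held 5 KLF matches and no other, and the Slfn2 window held 1 KLF match and the only ETS match of the 5 windows, at 54 bases before the start. The window of S1pr4 held 1 KLF match, and that of Foxo1 held none of the motifs. Among 32851 promoter windows of this length, 6.91% held CCGGAAG, 29.5% AGGAAG, 52.0% CACCC, 3.17% GTAAACA and 3.20% the MEF2 motif. These matches describe letters in a short window and no binding was measured.

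Of the 7 genes, Klf2 and S1pr1 were higher in the Ets1-/- samples, 0 were lower, and 5 did not pass the test (1 of these, Slfn2, had an unadjusted limma p under 0.05). Across all genes, 1.86% passed it (1.29% higher and 0.568% lower in Ets1-/-). The 7 genes and the lists below were chosen with earlier results known, so setting their counts beside these shares is no test. Counts at an unadjusted limma p under 0.05 have no such share beside them here, so they say nothing about a list as a whole. The test was limma on the deposited log2 values, two-sided, with Benjamini-Hochberg adjustment over 22180 genes and a threshold of 0.05. The 3 values of each genotype did not overlap for 3 of the 7 genes, of which 2 were higher and 1 lower in Ets1-/-. Over all genes 21.9% did not overlap (5.76% higher and 16.1% lower). The median difference of the 7 genes was -0.06 on the log2 scale, where that of all genes was -0.22. These are bulk samples, in which more or fewer cells of a type and more or less RNA per cell cannot be told apart.

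**Figure D1:**
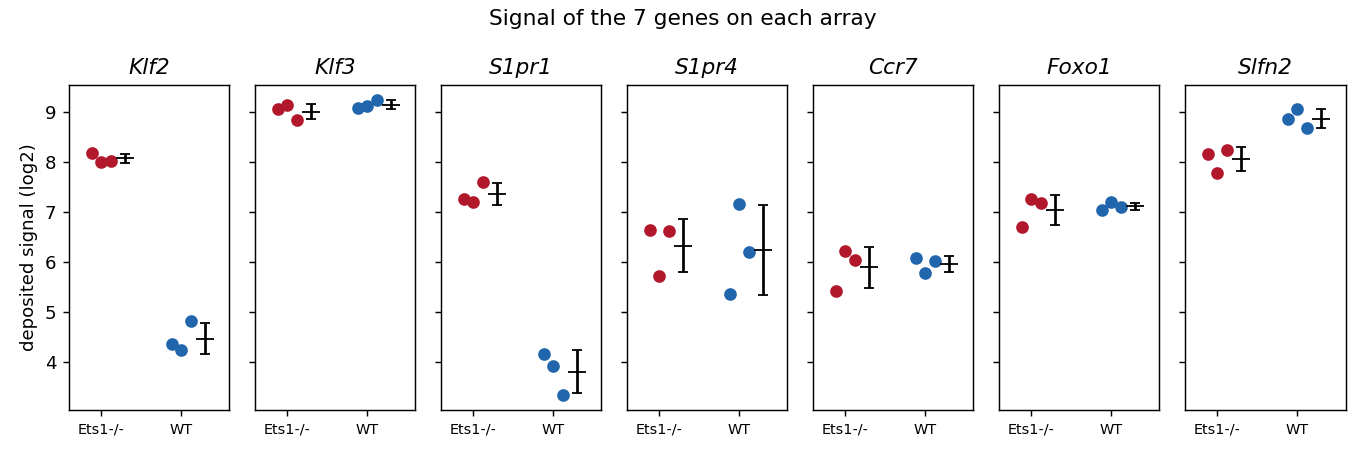
Deposited signal (log2, vertical axis) of the 7 genes on each array, with Ets1-/- arrays in red and WT arrays in blue; the black bar beside each set of points is the mean with its SD (n = 3). Klf2 lies between 8.004 and 8.17 in Ets1-/- and between 4.23 and 4.81 in WT, S1pr1 shows a gap of the same kind, Slfn2 is lower in Ets1-/- without overlap, and the groups overlap for the other genes.

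Klf2, the Krüppel-like factor that keeps T cells quiescent and drives their exit, had signals of 8.17, 8.004 and 8.02 in Ets1-/- replicates 1 to 3, against 4.35, 4.23 and 4.81 in WT replicates 1 to 3. Every Ets1-/- array stood far above every WT array, and the Ets1-/- arrays lay close together. The log2 difference was 3.60 ± 0.24 (SE; 95% interval 3.04 to 4.16; limma adjusted p = 0.000578), a 12.1-fold difference. The mean level in Ets1-/- exceeded 93.4% of all probe sets, while that in WT exceeded 55.4%, near the middle of the array. With a pseudocount of 16 on the linear scale, which damps differences of dim genes, the log2 difference was 2.89.

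S1pr1, the receptor that reads the S1P gradient and a direct target of Klf2, had signals of 7.25, 7.19 and 7.60 in Ets1-/- replicates 1 to 3, against 4.17, 3.92 and 3.34 in WT replicates 1 to 3. The groups were again far apart, with the widest spread among the WT arrays, where the signal was dim. The log2 difference was 3.54 ± 0.28 (SE; 95% interval 2.89 to 4.20; limma adjusted p = 0.00110), or 11.6-fold. The mean in Ets1-/- exceeded 89.1% of probe sets and that in WT 38.2%. With the pseudocount of 16 the log2 difference was 2.57.

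S1pr4, an S1P receptor of lymphoid and other blood cells, had signals of 6.63, 5.71 and 6.62 in Ets1-/- and 5.35, 7.15 and 6.19 in WT replicates 1 to 3. The groups overlapped, and WT replicates 1 and 2 were the lowest and the highest of the 6 arrays. The log2 difference of 0.09 ± 0.48 (SE; 95% interval -1.02 to 1.19; limma adjusted p = 0.945) has an interval that spans 2-fold changes in both directions. It was below 0 without Ets1-/- replicate 1 or 3 or WT replicate 1, and -0.35 in the last of these.

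Of the 3 other S1P receptors, 0 passed the limma test, and 0 had an unadjusted p under 0.05. The log2 differences of S1pr2, S1pr3 and S1pr5 were 0.17, -0.12 and -0.28, with limma adjusted p of 0.768, 0.944 and 0.699. S1pr3, which is best known from vessels, and S1pr5, which serves natural killer cells, had WT signals of 3.36 and 4.39, below and above the medians of the WT arrays. The log2 ratio of S1pr1 to S1pr4 within an array was 1.03 ± 0.43 in Ets1-/- and -2.43 ± 1.09 in WT (SD, n = 3 each), a pair picked with the rise of S1pr1 known and so given without a test.

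Klf3, a Krüppel-like factor that acts as a repressor, was bright and level, with signals of 9.05, 9.13 and 8.83 in Ets1-/- and 9.07, 9.11 and 9.24 in WT replicates 1 to 3. The groups overlapped. The log2 difference was -0.14 ± 0.22 (SE; 95% interval -0.64 to 0.36; limma adjusted p = 0.792), and its sign turned with median centring of the arrays (0.07). The log2 ratio of Klf2 to Klf3 within an array was -0.94 ± 0.17 in Ets1-/- and -4.68 ± 0.23 in WT (SD, n = 3 each), again without a test.

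Of the 15 other KLF genes, 0 passed the limma test in either direction, and 2 had an unadjusted p under 0.05. Their log2 differences ran from -0.64 to 0.67, with a median of -0.03. Klf6, an immediate early gene, had 8.37 ± 0.11 in Ets1-/- and 7.70 ± 0.13 in WT (SD, n = 3 each; log2 difference 0.67 ± 0.21 SE, limma adjusted p = 0.225). Klf15, Klf12 and Klf14 had log2 differences of -0.64, 0.67 and -0.62 with limma adjusted p of 0.320, 0.446 and 0.496. The 95% interval of Klf2 lay wholly above those of all the other KLF genes.

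**Figure D2:**
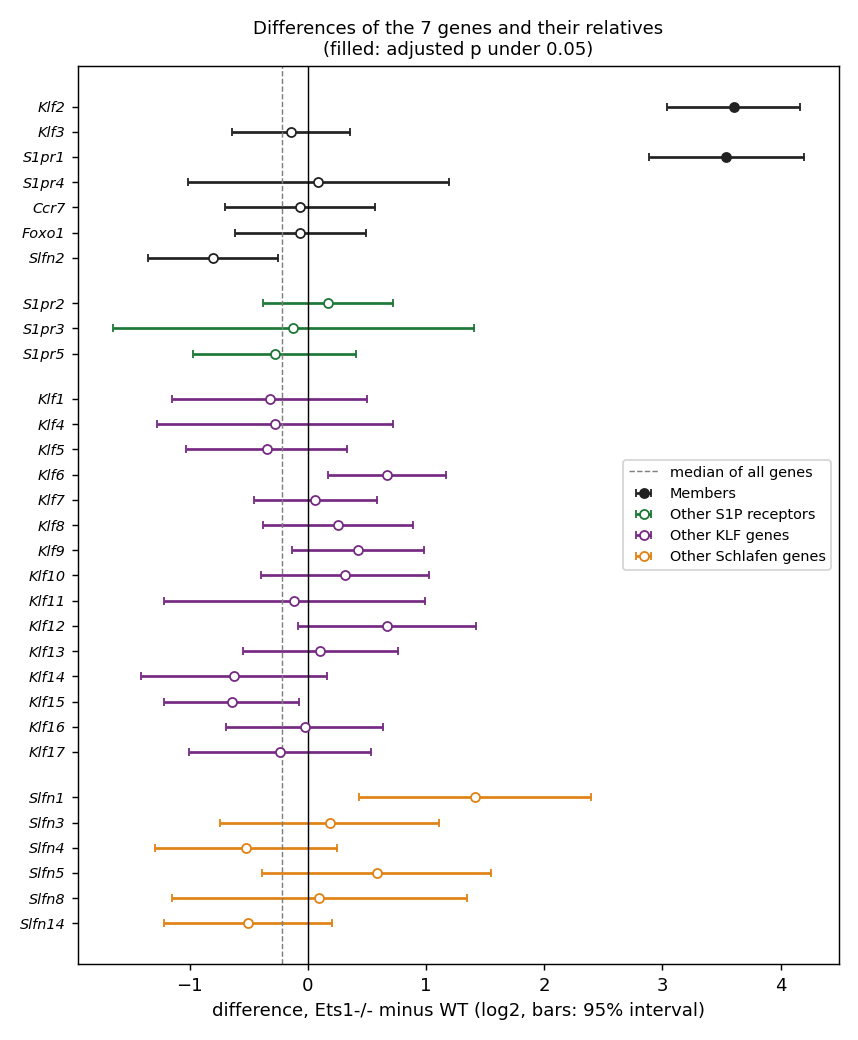
Log2 difference, Ets1-/- minus WT, with its 95% interval (horizontal axis) for the 7 genes in black, the other S1P receptors in green, the other KLF genes in purple and the other Schlafen genes in orange; filled points passed the limma test and the dashed line is the median of all genes at -0.22. Klf2 at 3.60 and S1pr1 at 3.54 are the filled points and stand to the right of all their relatives.

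Foxo1, the transcription factor that acts before Klf2, had signals of 6.70, 7.25 and 7.17 in Ets1-/- and 7.04, 7.19 and 7.09 in WT replicates 1 to 3. The groups overlapped, with Ets1-/- replicate 1, the array with the low median, below the rest. The log2 difference was -0.06 ± 0.24 (SE; 95% interval -0.62 to 0.49; limma adjusted p = 0.919), and it was 0.15 with median centring and 0.07 with quantile normalization. The dimmer Foxo1 probe set had 4.69 ± 0.68 in Ets1-/- and 4.29 ± 0.57 in WT (SD, n = 3 each), a log2 difference of 0.40 (limma adjusted p = 0.697 over all probe sets naming 1 gene).

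Among 12 other genes of the FOXO, AKT and ERK5 to MEF2 pathways, 1 rose and 0 fell. The riser was Mef2c, a MEF2 factor of B cells, myeloid cells and early thymic progenitors, with signals of 6.39, 6.61 and 7.14 in Ets1-/- and 4.02, 2.57 and 2.64 in WT replicates 1 to 3. Its log2 difference was 3.63 ± 0.43 (SE; limma adjusted p = 0.00602), and 2.27 with the pseudocount of 16. Its relatives Mef2a and Mef2d had log2 differences of -0.45 and -0.34 (limma adjusted p = 0.417 and 0.533), and Foxo3 had -0.27 (0.606). Mapk7, which encodes ERK5, had 5.19 ± 0.62 in Ets1-/- and 5.49 ± 0.09 in WT (SD, n = 3 each; limma adjusted p = 0.706).

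Of the 2 other measured homing genes placed downstream of Klf2 and Foxo1, 1 rose. Itgb7, an integrin chain for homing to gut tissue, had signals of 7.47, 7.20 and 7.60 in Ets1-/- and 5.67, 6.12 and 4.78 in WT replicates 1 to 3. Its log2 difference was 1.90 ± 0.36 (SE; limma adjusted p = 0.0460), and of the 6 fits with an array left out only that without WT replicate 2 kept the call (adjusted p of the others up to 0.134). With the replicate number as a block the adjusted p was 0.0814. Il7r, the interleukin-7 receptor chain and a target of Foxo1, had signals of 7.33, 5.98 and 6.69 in Ets1-/- and 5.25, 4.64 and 4.11 in WT. The groups did not overlap, and the log2 difference of 2.0 ± 0.42 (SE) gave a limma adjusted p of 0.0663; it passed under 5 of the 8 other settings (adjusted p 0.00158 to 0.0750 over the 8).

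Ccr7, the receptor that brings selected thymocytes into the medulla, had signals of 5.42, 6.21 and 6.04 in Ets1-/- and 6.08, 5.78 and 6.02 in WT replicates 1 to 3. The groups overlapped, and Ets1-/- replicate 1 was again the lowest. The log2 difference was -0.07 ± 0.27 (SE; 95% interval -0.70 to 0.56; limma adjusted p = 0.924). Its sign turned with median centring (0.14) and without Ets1-/- replicate 1 (0.16). Among the 4 related genes measured, 0 passed the limma test. Ccr4 and the scavenging receptor Ackr4, the 2 with an unadjusted p under 0.05, had log2 differences of -1.29 and 0.95 (limma adjusted p = 0.357 and 0.311). Cxcr4 and Ccr9, chemokine receptors of DP thymocytes, had 0.05 and -0.02 (0.923 and 0.966).

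Slfn2, a Schlafen protein that keeps mouse T cells and monocytes quiescent, had signals of 8.15, 7.78 and 8.24 in Ets1-/- and 8.85, 9.05 and 8.68 in WT replicates 1 to 3. All Ets1-/- values lay below all WT values. The log2 difference was -0.80 ± 0.24 (SE; 95% interval -1.36 to -0.25), which did not pass the test (limma adjusted p = 0.187). It passed with the pseudocount of 16 (-0.77, adjusted p = 0.0356, where 1.91% of all genes passed as lower), with that pseudocount and quantile normalization (adjusted p = 0.0335, 2.7% of genes), and with an intensity trend and robust prior (adjusted p = 0.00159, 2.5% of genes). Under the 5 other settings it did not pass, with -0.59 under median centring (limma adjusted p = 0.427). Nor did it pass in the 6 fits without 1 array (limma adjusted p 0.168 to 0.527).

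Of the 6 other Schlafen genes measured, 0 passed the limma test, and 1 had an unadjusted p under 0.05. Slfn1 had signals of 5.91, 6.85 and 7.01 in Ets1-/- and 5.67, 5.45 and 4.41 in WT replicates 1 to 3, which did not overlap and lay on the other side from Slfn2. Its log2 difference was 1.41 ± 0.42 (SE; limma adjusted p = 0.193). Slfn14, Slfn4 and Slfn5 had differences of -0.51, -0.52 and 0.58 (limma adjusted p = 0.540, 0.554 and 0.590). Schlafen genes are close copies of each other, so a probe set may also read a relative.

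The enzymes and carriers that make, move and destroy S1P gave 0 of 11 past the limma test (1 at an unadjusted p under 0.05). Their median log2 difference was -0.03. Apom, which carries S1P in plasma, Sgpp1, an S1P phosphatase, and Sphk1, a kinase that makes S1P, had differences of -0.69, -0.60 and -0.55 (limma adjusted p = 0.251, 0.383 and 0.406). The genes for movement and for keeping S1PR1 on the surface gave 0 of 10 (3 at an unadjusted p under 0.05). Cd69, whose product pulls S1PR1 inside the cell and so holds thymocytes back, had signals of 8.50, 8.36 and 8.13 in Ets1-/- and 7.61, 7.31 and 7.27 in WT replicates 1 to 3. The groups did not overlap, and the log2 difference was 0.93 ± 0.23 (SE; limma adjusted p = 0.111); it passed under 5 of the 8 other settings (adjusted p 0.00178 to 0.210 over the 8). Rassf5 and the actin regulators Coro1a and Dock2 had differences of -0.74, -0.56 and -0.49 (limma adjusted p = 0.210, 0.347 and 0.479). Over all pathway lists, 63 genes other than the 7 were measured, of which 2 rose (Mef2c and Itgb7) and 0 fell. At an unadjusted limma p under 0.05, 7 were higher and 5 lower. The share of all genes at that cut is not given here.

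Genes that followed Klf2 or S1pr1 most closely over the arrays were found by the root mean square difference of log2 values, each gene centred on its own mean of 6 arrays. Nearest to Klf2 were H2-Aa at 0.228, Ly86 at 0.235, Plac8 at 0.303, Apol7c at 0.320 and Ccl5 at 0.326, where the median over 19236 named genes was 1.95. H2-Aa is a class II histocompatibility gene of antigen-presenting cells, Ly86 encodes a surface partner of B cells and myeloid cells, and Ccl5 is a chemokine of T cells and natural killer cells. Nearest to S1pr1 were the lysosomal protease Lgmn at 0.148, H2-Ab1 at 0.213, the macrophage growth factor receptor Csf1r at 0.254, S100a4 at 0.256 and Plac8 at 0.269. S1pr1 ranked 20 by nearness to Klf2, and Klf2 ranked 42 by nearness to S1pr1, both at 0.439. The measure largely reflects the step between genotypes, which many genes share.

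**Figure D3:**
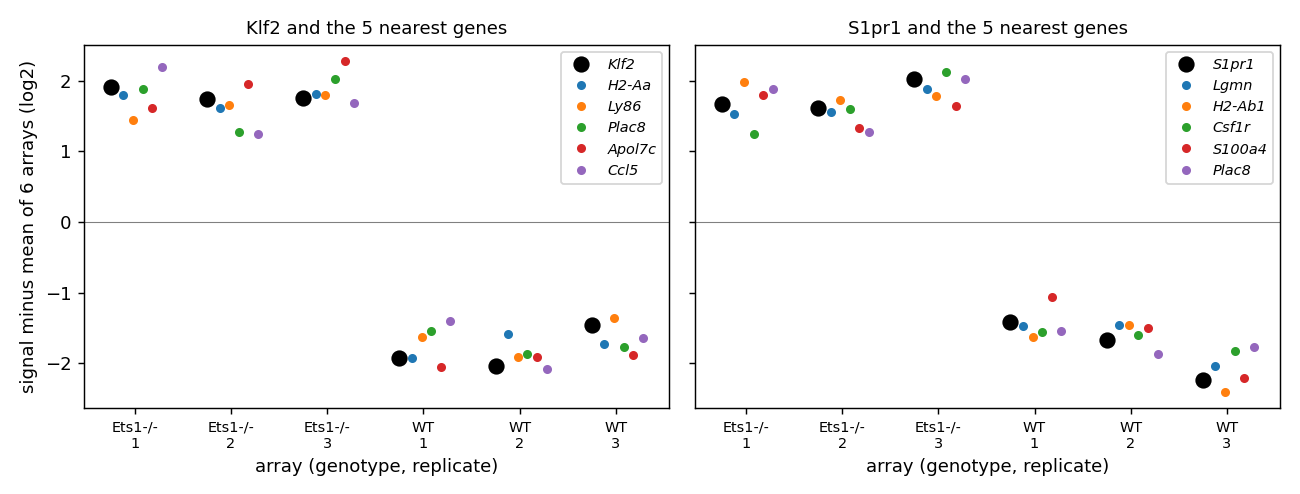
Signal minus the gene's own mean of 6 arrays (log2, vertical axis) on each array for Klf2 (left panel, black) and S1pr1 (right panel, black), each with its 5 nearest genes in colour; points are shifted sideways to be seen. All genes shown lie above their mean on the 3 Ets1-/- arrays and below it on the 3 WT arrays.

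Markers of other cells moved with Klf2 and S1pr1. Of 13 macrophage markers, 10 rose and 0 fell (limma, against 1.29% of all genes), with a median log2 difference of 2.77. The log2 of their summed signal was 11.92 to 12.35 in Ets1-/- and 9.54 to 9.82 in WT, and no macrophage marker was at or below 0 on any array. Among the 10, Csf1r, C1qa and Mpeg1 had log2 differences of 3.31, 2.85 and 3.05. The 3 markers that did not pass were Mertk (1.48), Marco (-0.21) and Vsig4 (-0.08), the last 2 of them dim in both genotypes (3.54 and 2.19 in Ets1-/-, 3.75 and 2.27 in WT). Of 9 dendritic-cell markers, 4 rose and 0 fell, with summed signals of 11.45 to 11.61 in Ets1-/- and 8.41 to 8.60 in WT. The 4 were H2-Aa, H2-Ab1 and H2-Eb1, class II genes that B cells and macrophages share and the brightest of the list in Ets1-/-, and Itgax. Siglech, Flt3, Batf3, Zbtb46 and Xcr1, which are more specific to dendritic cells, had log2 differences of 0.81, 0.03, -0.25, -0.38 and -1.15 and did not pass. Of 9 B-cell markers, 4 rose and 0 fell, with summed signals of 8.65 to 9.74 in Ets1-/- and 6.47 to 6.90 in WT. All 9 had an unadjusted limma p under 0.05, with log2 differences of 1.23 to 6.14. Ms4a1, which encodes CD20, had 5.52, 6.07 and 6.98 in Ets1-/- and 0.20, -0.91 and 0.85 in WT. No dendritic-cell marker was at or below 0 on any array. What part these cells had in the signals of Klf2 and S1pr1 was not tested.

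Markers of mature single-positive T cells rose in part, with 3 of 7 higher and 0 lower (limma, against 1.29% and 0.568% of all genes). Ms4a4b had 7.74 ± 0.20 in Ets1-/- and 4.80 ± 0.43 in WT (SD, n = 3 each; limma adjusted p = 0.00246), and the other risers were Itgb7 and Gimap4. Of the 4 that did not pass, Il7r and Bcl2 lay higher without overlap (log2 differences 2.0 and 0.94, limma adjusted p = 0.0663 and 0.333), and Cd52 and Gimap6 lay lower without overlap (-0.46 and -0.39, 0.416 and 0.491). Among all genes 5.76% lay higher and 16.1% lower without overlap, and the median difference was -0.22. The summed signal of the list was 11.24 to 11.51 in Ets1-/- and 10.64 to 11.19 in WT. The part of mature T cells in the signals of Klf2 and S1pr1 was not tested either. Of 8 endothelial markers, 0 passed the limma test (4 at an unadjusted p under 0.05), and all differences were below 0 (-1.26 to -0.16). Their median was -0.59, where that of all genes was -0.22, and 6 lay lower without overlap (16.1% of all genes). Their summed signal was 6.70 to 7.40 in Ets1-/- and 7.94 to 8.43 in WT. Pecam1, which other blood cells also express, carried most of that sum (6.42 in Ets1-/- and 7.68 in WT); the other 7 were dim, with WT means of at most 4.32. The part of endothelial cells in the signals of Klf2 and S1pr1 was not tested. Of 8 natural killer markers 0 passed (3 at an unadjusted p under 0.05), with summed signals of 8.61 to 9.39 in Ets1-/- and 7.63 to 8.41 in WT. Gzma, the brightest of them, had 8.33 in Ets1-/- and 7.52 in WT, with overlap. Il2rb and Klrd1 lay higher without overlap (4.08 and 1.24), and Ncr1 and Prf1 lower without overlap (-0.55 and -0.56). The median difference of the list was 0.29, and Il2rb was below 0 on WT replicate 3. The neutrophil, erythroid, epithelial and fibroblast lists, of 8, 3, 7 and 7 measured genes, each had 0 past the limma test, with 1, 0, 1 and 0 at an unadjusted p under 0.05. Their median log2 differences were -0.43, -0.54, -0.38 and -0.32, where that of all genes was -0.22. The neutrophil and erythroid genes were dim, with WT means of at most 5.00 and 4.80. The lists of DP and T-cell markers had summed signals of 13.35 to 13.47 and 13.71 to 13.75 in Ets1-/- and of 13.43 to 13.48 and 13.64 to 13.75 in WT, and of their 15 genes only Ptcra passed, higher in Ets1-/- (limma adjusted p = 0.0282).

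**Figure D4:**
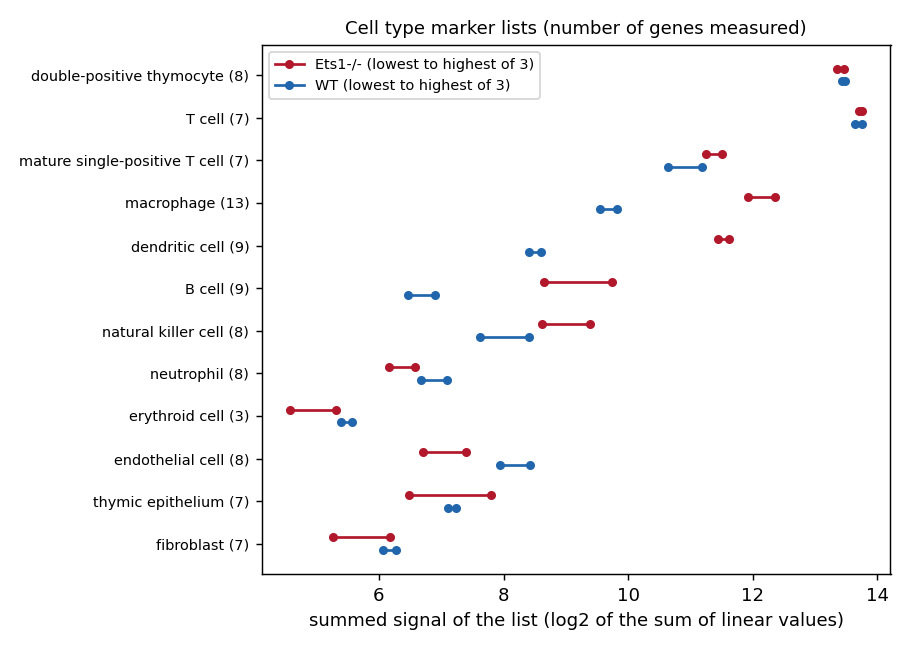
Log2 of the summed linear signal (horizontal axis) of each cell type marker list, as the lowest to highest of 3 Ets1-/- arrays in red and of 3 WT arrays in blue, with the number of genes measured in brackets. The macrophage, dendritic-cell, B-cell, natural killer and mature single-positive T-cell lists lie higher in Ets1-/- without overlap. Single natural killer markers went in both directions, and Gzma was the brightest of them. The endothelial list (6.70 to 7.40 in Ets1-/- and 7.94 to 8.43 in WT) and the neutrophil and erythroid lists lie lower without overlap. The genes of the neutrophil and erythroid lists are dim in both genotypes. The DP, T-cell, epithelial and fibroblast lists overlap.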

How the data were processed

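The authors deposited log2 values of 41345 probe sets on the 6 arrays, a scale read from the values (-15.86 to 16.36). They used affy, per the submitters' processing notes; no version, background correction, normalization or genome build is given there, and there are no detection calls. By the platform annotation 23521 probe sets named 1 gene. The number of arrays limits the precision.

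Differences, Ets1-/- minus WT, were fitted over 22180 genes with limma 3.58.1 in R 4.3.3 (lmFit, eBayes, no covariate). Tested on simulated data (22180 genes, 200 changed in each of 20 runs), the fit for this comparison recovered 3.1% of genes raised by 1, 54.5% by 2 and 88.5% by 3.5 on the log2 scale. The simulated arrays had no shift like the low median of Ets1-/- replicate 1. Tables and plots used Python 3.11.15.

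The 7 genes and all lists were chosen with earlier results of these data known. Besides the 7, the text names Ets1, Cd4, Cd8a, Cd3e, the 5 genes nearest to Klf2 and to S1pr1 (clone, Riken and Gm names skipped), pathway genes past the threshold or up to 4 with the smallest p, and up to 3 per marker list. Mapk7, Marco, Vsig4, Mertk, the uncalled dendritic-cell markers, Itgax, Bcl2, Cd52, Gimap6, Gzma and Ncr1 were added after their values were seen. Some genes of the lists were not analysed here. Alternatives covered the probe sets of a gene, a filter, normalization, centring, a pseudocount, the variance prior, a replicate block and the omission of each array.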

Additional observations from a re-analysis of the deposited data

How the results depend on the processing

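Klf2 and S1pr1 stayed higher and past the threshold under all 8 other settings and in all 6 fits without 1 array, with log2 differences of 2.89 to 3.81 and 2.57 to 3.75 under those 8 settings and adjusted p of at most 0.00845 throughout. In every one of these fits 2 of the 7 genes were higher. Slfn2 stayed below 0, and it was the 1 gene of the 7 called lower with the pseudocount of 16 (-0.77), with that and quantile normalization (-0.76), and with the trend and robust prior (-0.80); no gene of the 7 was called lower elsewhere. The sign of uncalled differences turned with the scaling. Under median centring Klf3, Ccr7 and Foxo1 were at 0.071, 0.14 and 0.15; under quantile normalization Ccr7 and Foxo1 were at 0.094 and 0.068; with the pseudocount added, at 0.074 and 0.060; and the mean of its probe sets put Foxo1 at 0.17. Leaving out single arrays gave -0.35 to 0.55 for S1pr4, -0.23 to 0.16 for Ccr7 and -0.17 to 0.11 for Foxo1. The median of all genes was -0.22 and became -0.01 under median centring. Median centring subtracts a constant from each array, so it moved the difference of every gene by the same amount. The cause of the other changes was not tested.

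Over all genes, 413 passed (287 higher, 126 lower; 69.5% higher). Quantile normalization gave 798 (513 higher, 285 lower), median centring 745 (545 and 200), the pseudocount of 16 907 (484 and 423; 53.4% higher), the pseudocount with quantile normalization 1355 (757 and 598; 55.9%), and the trend with robust prior 1172 (618 and 554; 52.7%). Above the median signal 264 were lower and 56.8% of the calls were higher. Without 1 array the count was 190 to 379, with 145 to 276 higher and 38 to 103 lower. A replicate block gave 62 lower, ended the call of Itgb7 (adjusted p = 0.0814) and gave one to Il7r (0.0440). Il7r also passed above the median signal, with the pseudocount with and without quantile normalization, and with the trend and robust prior (0.0338, 0.0495, 0.0293 and 0.00158), and Cd69 passed in the same 4 (0.0427, 0.0115, 0.0152 and 0.00178) and with quantile normalization alone (0.0456). Klf6 passed with the pseudocount with and without quantile normalization and with the trend and robust prior (0.0131, 0.0307 and 0.0149), and Slfn1 in the first and last of these (0.0259 and 0.0282). Same-numbered arrays did not deviate together (r = -0.08, -0.08 and -0.16 over 11631 genes), so the samples were not treated as paired; the labels name litter-mate cohorts and do not say whether a number marks a shared litter.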
